A study of Homo sapiens with 18 samples.

Results

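The regions described here are the stretches of open chromatin at 8 genes that move lipids into, within and out of cells, namely ABCA1, ABCG1, CD36, SCARB1, SREBF1, PPARG, FABP5 and ANGPTL4, in 3 head and neck squamous carcinoma cell lines. A region was a member when it overlapped the gene body or the 20 kb on either side of it (GENCODE on GRCh37), which gave 68 of the 115087 regions of the series. ABCA1 held 16 of them, CD36 20, FABP5 9, SREBF1 6, SCARB1 5, ANGPTL4 5, PPARG 4 and ABCG1 3. Accessibility was measured by ATAC-seq (a transposase, Tn5, inserts adapters where DNA is exposed) in SCC1, SCC6 and SCC25 cells that received cetuximab at 100 nM or PBS each day for 5 days. Cetuximab is an antibody that blocks the epidermal growth factor receptor, and PBS is the untreated control. All groups were established carcinoma lines grown in the same medium with fetal bovine serum, a source of lipoproteins, and no group carried an engineered allele in the labels. Each of the 6 groups had 3 samples in the labels. The signal values used here held none for SCC1 PBS replicate 2. That group therefore had 2 libraries (replicates 1 and 3), and 17 libraries were used.

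The genes were chosen by values of these data. In SCC25, an intron region of CD36 was higher and an exon region of ABCA1 was lower after cetuximab, and the gene list was built around those values. Everything on the response of SCC25 is therefore a description, with no test. The responses of SCC1 and SCC6, the difference between them, and the differences between untreated lines are tested. The distance of 20 kb also has an edge: the farthest member lay 19788 bases from ANGPTL4 with a mean signal of 58.0, and the nearest region left out lay 20294 bases from ABCA1 with a mean signal of 6.95.

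ABCA1 pumps cholesterol and phospholipid out of the cell onto apolipoprotein A-I, and ABCG1 passes cholesterol on to high-density lipoprotein. Both are classic targets of the sterol-sensing liver X receptors. CD36 is a scavenger receptor that takes up fatty acids and oxidised lipoproteins, and SCARB1 is the receptor for high-density lipoprotein. FABP5 is the epidermal fatty acid binding protein, which carries fatty acids inside keratinocytes. SREBF1 encodes a factor that switches on fatty acid synthesis, PPARG encodes a nuclear receptor that fatty acids activate, and ANGPTL4, a target of PPAR factors, inhibits lipoprotein lipase. Squamous epithelium makes the lipid barrier of the skin, which uses several of these genes.

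The sequences below are the central 201 bases of the regions on which the comparisons turn, read from GRCh37 on the plus strand. Capitals mark matches on either strand to the AP-1 motif (TGACTCA or TGAGTCA), the TEAD motif (GGAATG) or the nuclear receptor motif AGGTCA. Over all regions, 20.8%, 16.6% and 12% of the central windows held these motifs, and over the 68 members 23.5%, 22.1% and 17.6%. A match is a description of letters and not a site of binding. In intron 5 of ABCA1 lie the 2 regions that fell in SCC1. The first, chr9:107635518-107635718, held an AP-1 and a TEAD match. The second, chr9:107631283-107631483, held none.
ABCA1 intron 5, 541-base region: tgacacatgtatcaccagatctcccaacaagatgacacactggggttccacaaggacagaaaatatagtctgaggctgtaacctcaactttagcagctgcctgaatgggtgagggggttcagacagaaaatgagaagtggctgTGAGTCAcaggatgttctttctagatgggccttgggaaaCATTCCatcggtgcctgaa
ABCA1 intron 5, 288-base region: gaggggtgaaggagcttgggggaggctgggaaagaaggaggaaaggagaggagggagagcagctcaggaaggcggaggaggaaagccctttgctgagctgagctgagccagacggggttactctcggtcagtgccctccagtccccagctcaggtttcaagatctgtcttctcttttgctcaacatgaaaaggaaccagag

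The regions whose SCC25 values chose the genes are at exon 13 of ABCA1 (chr9:107594010-107594210), with no match, and in an intron of CD36 (chr7:80193323-80193523), with an AGGTCA match.
ABCA1 exon 13: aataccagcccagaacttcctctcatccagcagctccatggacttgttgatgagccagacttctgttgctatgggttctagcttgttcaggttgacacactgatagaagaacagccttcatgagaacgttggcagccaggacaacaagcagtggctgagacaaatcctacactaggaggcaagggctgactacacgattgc
CD36 intron, 599-base region: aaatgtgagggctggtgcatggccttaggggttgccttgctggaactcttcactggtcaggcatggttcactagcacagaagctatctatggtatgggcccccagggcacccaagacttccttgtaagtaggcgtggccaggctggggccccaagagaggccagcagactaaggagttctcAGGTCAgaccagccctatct

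Intron 1 of SCARB1 held the strongest regions of that gene. The window chr12:125313151-125313351 had 2 AGGTCA matches, and chr12:125322895-125323095 had none of the 3 motifs.
SCARB1 intron 1, 641-base region: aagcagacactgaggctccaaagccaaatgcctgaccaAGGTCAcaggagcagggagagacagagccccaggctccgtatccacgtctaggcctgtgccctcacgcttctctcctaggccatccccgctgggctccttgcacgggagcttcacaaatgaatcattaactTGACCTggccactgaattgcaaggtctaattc
SCARB1 intron 1, 608-base region: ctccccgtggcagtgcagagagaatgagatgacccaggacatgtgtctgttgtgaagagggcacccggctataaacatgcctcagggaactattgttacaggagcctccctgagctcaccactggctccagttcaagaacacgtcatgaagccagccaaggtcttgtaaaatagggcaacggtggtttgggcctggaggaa

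The signal of a region is its read count times a scale factor per library, with a floor of 1 read. Reads in regions numbered 2194851 to 4171650 in SCC1, 4098164 to 15017130 in SCC6 and 2513828 to 13408698 in SCC25 libraries. Replicates varied more than counting alone gives (chi-square over its degrees of freedom 1.92 to 3.49). Nothing in the labels ties a replicate to a separate culture, so p-values measure the spread between libraries, which may be technical. In these bulk libraries a region open in fewer cells and a region less open in each cell cannot be told apart. Promoters of 6 of 6 epithelial markers had a region, although KRT14 was near the floor in SCC6 (mean signal 1.66 with PBS). Of 9 markers of leukocytes, endothelium, fat and liver, CD14 had one, and its mean signal was 86.9 with PBS and 35.1 with cetuximab in SCC1.

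Most members were distal. Of the 68 regions, 51 lay in a gene body and 44 in introns, while 9 lay within 1 kb of a start site of the gene itself. CD36 and ABCG1 had no such promoter region. Regions at the promoters of NIPSNAP3B, KANK3 and RAB11B fell in the windows of ABCA1 and ANGPTL4 and are kept under those genes. A peak was called in every library at 2 members, one upstream of SREBF1 and one downstream of PPARG. Peaks were confined to SCC6 libraries at 19 members and to SCC25 libraries at 9, and the library with most reads was one of SCC6. With the 25% of regions lowest in mean signal left out of each comparison, 44 members were tested in all comparisons and 1, upstream of CD36, in none.

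After cetuximab, 7 of 58 tested members changed in SCC1 (5 higher and 2 lower, median log2 change 0.07) and 16 of 58 in SCC6 (13 higher and 3 lower, median 0.23), at an adjusted p under 0.05 in limma. Over all regions, 4.57% were higher and 6.56% lower in SCC1 (median -0.09), and 16.9% were higher and 10.6% lower in SCC6 (median 0.11). The member shares in SCC6 were 22.4% higher and 5.17% lower. With libraries centred on their medians, the median over all regions became 0.10 in SCC1, -0.06 in SCC6 and -0.25 for the difference of the responses, and the members numbered 11 higher and 2 lower in SCC1 and 8 higher and 4 lower in SCC6, beside 7.94% and 4.22% of all regions in SCC1 and 12% and 18.3% in SCC6. The 2 responses differed at 8 of 60 tested members, 4 with a higher log2 change in SCC6 and 4 with a lower one, against 6.75% and 3.8% of all regions. Centred, they differed with 2 higher and 8 lower members, beside 3.68% and 10.3%. In SCC25, 57 members could be fitted, and the 2 past the threshold were the CD36 and ABCA1 regions that chose the genes. Their passing was fixed by that choice, so it is no excess over the 0.0405% of all regions higher and 0.275% lower.

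**Figure D1:**
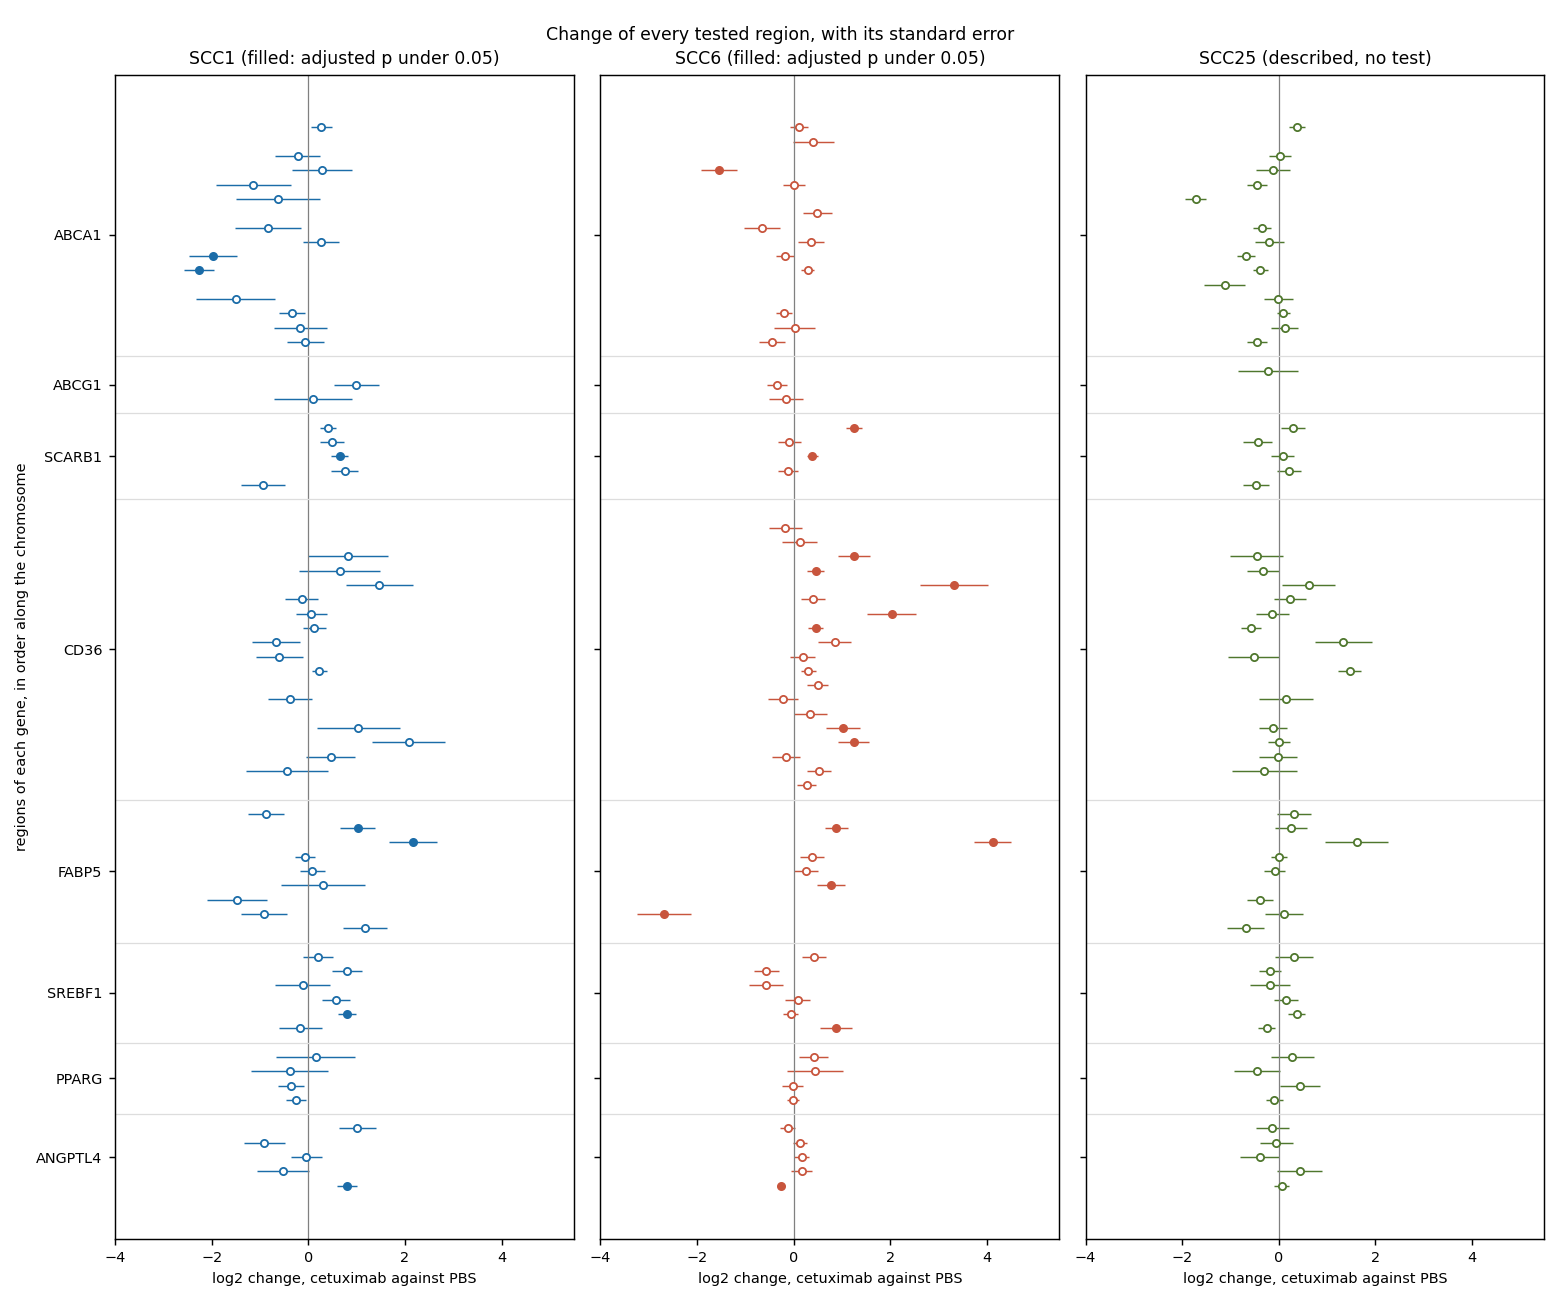
Log2 change of signal (cetuximab against PBS, horizontal axis, bars are standard errors) for every fitted region, grouped by gene and ordered along the chromosome (vertical axis), in SCC1, SCC6 and SCC25. Filled points passed an adjusted p of 0.05; SCC25 is shown without a test. Of 19 CD36 points in SCC6, 16 lie right of 0, beside 48977 of 86315 over all regions. The 2 filled ABCA1 points in SCC1 lie near -2.

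ABCA1 changed in SCC1 at intron 5. The region chr9:107635348-107635888 had signals of 181 and 136 with PBS and of 44.4, 19.5 and 37.6 with cetuximab in SCC1. In SCC6 it had 122, 110 and 126 with PBS and 130, 159 and 149 with cetuximab, and in SCC25 198, 185 and 184 against 115, 171 and 156. The treated libraries of SCC1 lay below all its untreated ones, while those of SCC6 lay above theirs by a smaller step. The log2 change was -2.26 (SE 0.31, limma adjusted p = 1.02e-09) in SCC1 and 0.29 (SE 0.14, adjusted p = 0.127) in SCC6. The difference between these responses was 2.55 (SE 0.36, adjusted p = 0.000514), and no alternative ended the SCC1 call or this one.

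A second intron 5 region of ABCA1, chr9:107631240-107631527, fell in the same line. Its signals in SCC1 were 52.0 and 48.0 with PBS and 12.7, 7.79 and 17.2 with cetuximab. They were 91.8, 79.0 and 91.4 against 72.7, 83.6 and 75.7 in SCC6, where the groups overlapped. The log2 change in SCC1 was -1.97 (SE 0.49, adjusted p = 0.00225), and the difference of SCC6 from SCC1 was 1.80 (SE 0.39, adjusted p = 0.00753). The SCC1 call did not hold without SCC1 PBS replicate 1 (adjusted p = 0.146) or SCC1 PBS replicate 3 (adjusted p = 0.0811), which leaves 1 untreated library, while the difference held without any library. In SCC25 the signal was 110, 108 and 97.6 with PBS and 59.1, 74.9 and 63.8 with cetuximab. No peak was called at this region in any SCC1 library.

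Elsewhere in ABCA1, intron 28 (chr9:107573257-107573519) fell in SCC6, from 32.6, 18.1 and 42.4 to 11.1, 10.2 and 7.27, a log2 change of -1.54 (SE 0.37, adjusted p = 0.00132). Its levels are low, and the difference from SCC1 did not pass (adjusted p = 0.109). The ABCA1 promoter, chr9:107690148-107690581, had 37.7 and 34.6 with PBS and 38.1, 52.6 and 20.3 with cetuximab in SCC1, and 48.3, 34.1 and 38.1 against 30.3, 24.1 and 32.7 in SCC6. Its log2 changes were -0.07 (SE 0.39) and -0.45 (SE 0.27), neither past the threshold (adjusted p = 0.946 and 0.209).

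The exon 13 region of ABCA1, chr9:107593943-107594277, was open in SCC25, with 105, 97.4 and 107 with PBS and 28.1, 30.0 and 33.6 with cetuximab. In SCC1 its highest library had 11.7 and in SCC6 14.7. Its SCC25 log2 change of -1.72 chose ABCA1 for this list and is given as a description. No peak was called there in any SCC1 or SCC6 library or in treated SCC25, while all 3 untreated SCC25 libraries had one. Reads in regions numbered 5509462 to 13408698 in untreated and 2513828 to 7385401 in treated SCC25 libraries. The presence of a peak is therefore not compared at equal depth.

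**Figure D2:**
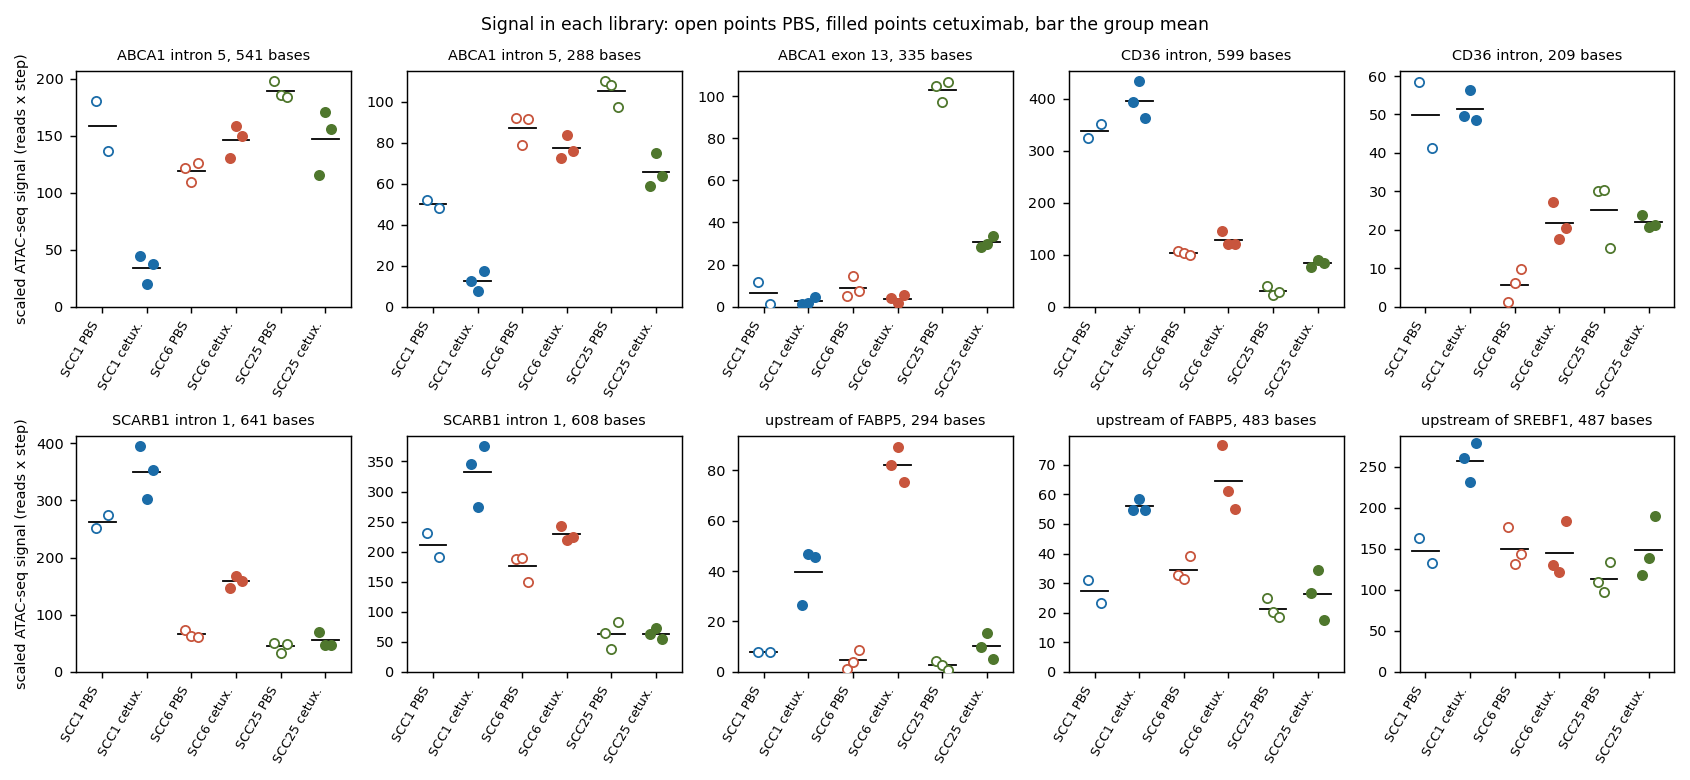
Scaled ATAC-seq signal (reads times the library's scale factor, vertical axis, from 0) in each library for 10 regions, by line and treatment; open points are PBS, filled points cetuximab and bars the group mean. The ABCA1 intron 5 regions fell in SCC1 alone among the tested lines, and the 294-base region upstream of FABP5 rose in SCC1 and SCC6.

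ABCG1, the partner of ABCA1 in sterol efflux, had 3 regions and no call in SCC1 or SCC6. In limma 1 of 2 tested regions had an unadjusted p under 0.05 in SCC1 and 0 of 2 in SCC6, and edgeR and DESeq2 called 0 in either line. The region in its intron 2, chr21:43648095-43648472, had 16.9 and 14.5 with PBS and 35.5, 37.0 and 25 with cetuximab in SCC1. In SCC6 it had 61.6, 75.6 and 69.6 against 51.5, 52.0 and 58.5, and in both lines treated and untreated libraries did not overlap. The log2 changes were 0.99 (SE 0.46, adjusted p = 0.162) and -0.34 (SE 0.21, adjusted p = 0.218), and their difference of -1.33 (SE 0.36) had an adjusted p of 0.0256. This call was lost with 5 of 11 libraries left out in turn (adjusted p 0.0521 to 0.0776), namely SCC1 PBS replicate 3, SCC6 cetuximab replicates 1 and 2 and SCC6 PBS replicates 2 and 3, and with all libraries in one fit (adjusted p = 0.14). In untreated SCC25 the region was at the floor of 1 read in every library.

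In SCC6, 7 of 19 tested CD36 regions rose in limma and the other 12 did not pass, beside 16.9% of all regions that rose. Of the same 19 regions, edgeR called 6 and DESeq2 4. The median log2 change was 0.46, against 0.30 for the surrounding 5 Mb and 0.11 over all regions. In SCC1, limma called 0 of 14 regions, 2 had an unadjusted p under 0.05, edgeR called 1 and DESeq2 0. The difference of the 2 responses passed at 1 region of CD36, so the count of rises in SCC6 is not shown to be particular to that line. All tested regions of CD36 lie in introns, and the stretch between 80099387 and 80128471 on chromosome 7 overlaps GNAT3, a taste G protein gene.

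Among the CD36 regions that rose in SCC6, chr7:80112313-80112521 had 1.21, 6.02 and 9.79 with PBS in SCC6 and 27.3, 17.6 and 20.5 with cetuximab. The log2 change was 2.03 (SE 0.51, adjusted p = 0.00183), and the untreated value of 1.21 is the floor of 1 read. Untreated SCC1 had 58.5 and 41.3 there, and treated SCC1 49.5, 56.4 and 48.5. Treated SCC6 thus stayed below SCC1. No peak was called at this region in any SCC6 library, treated or untreated.

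At chr7:80241056-80241386 CD36 had 9.67, 16.7 and 16.3 with PBS and 35.4, 28.8 and 39.0 with cetuximab in SCC6. The log2 change was 1.24 (SE 0.32, adjusted p = 0.00293). SCC1 had 3.90 and 2.23 against 14, 25.3 and 11, without overlap, at a log2 change of 2.07 (SE 0.75) that missed the threshold (adjusted p = 0.0523). SCC25 had means of 54.4 and 54.3.

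CD36 at chr7:80162658-80162892 had 28.6 and 29.0 with PBS and 14, 19.5 and 20.3 with cetuximab in SCC1, and 13.3, 13.4 and 14.1 against 24.2, 28.8 and 23.5 in SCC6. Neither change passed (adjusted p = 0.425 and 0.0537), and their difference was 1.53 (SE 0.47, adjusted p = 0.0466). It was lost with 9 of 11 libraries left out in turn (adjusted p 0.0720 to 0.118) and with 8 other settings (adjusted p 0.0513 to 0.109).

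The CD36 region that chose the gene, chr7:80193124-80193722, was the strongest of CD36. It had 325 and 352 in untreated and 393, 434 and 363 in treated SCC1, and 108, 103 and 100 against 145, 120 and 120 in SCC6. The changes of 0.23 and 0.30 did not pass (SE 0.16 and 0.15, adjusted p = 0.393 and 0.134). In SCC25 it had 38.8, 23.1 and 28.8 with PBS and 75.9, 90.5 and 85.0 with cetuximab, a log2 change of 1.47 given as a description. The order of untreated levels was SCC1, SCC6 and SCC25. SCC6 was lower than SCC1 (log2 difference -1.70, SE 0.20, adjusted p = 2.52e-06), and the level of untreated SCC25 belongs to the values that chose the region. Treated SCC25 remained below untreated SCC6.

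**Figure D3:**
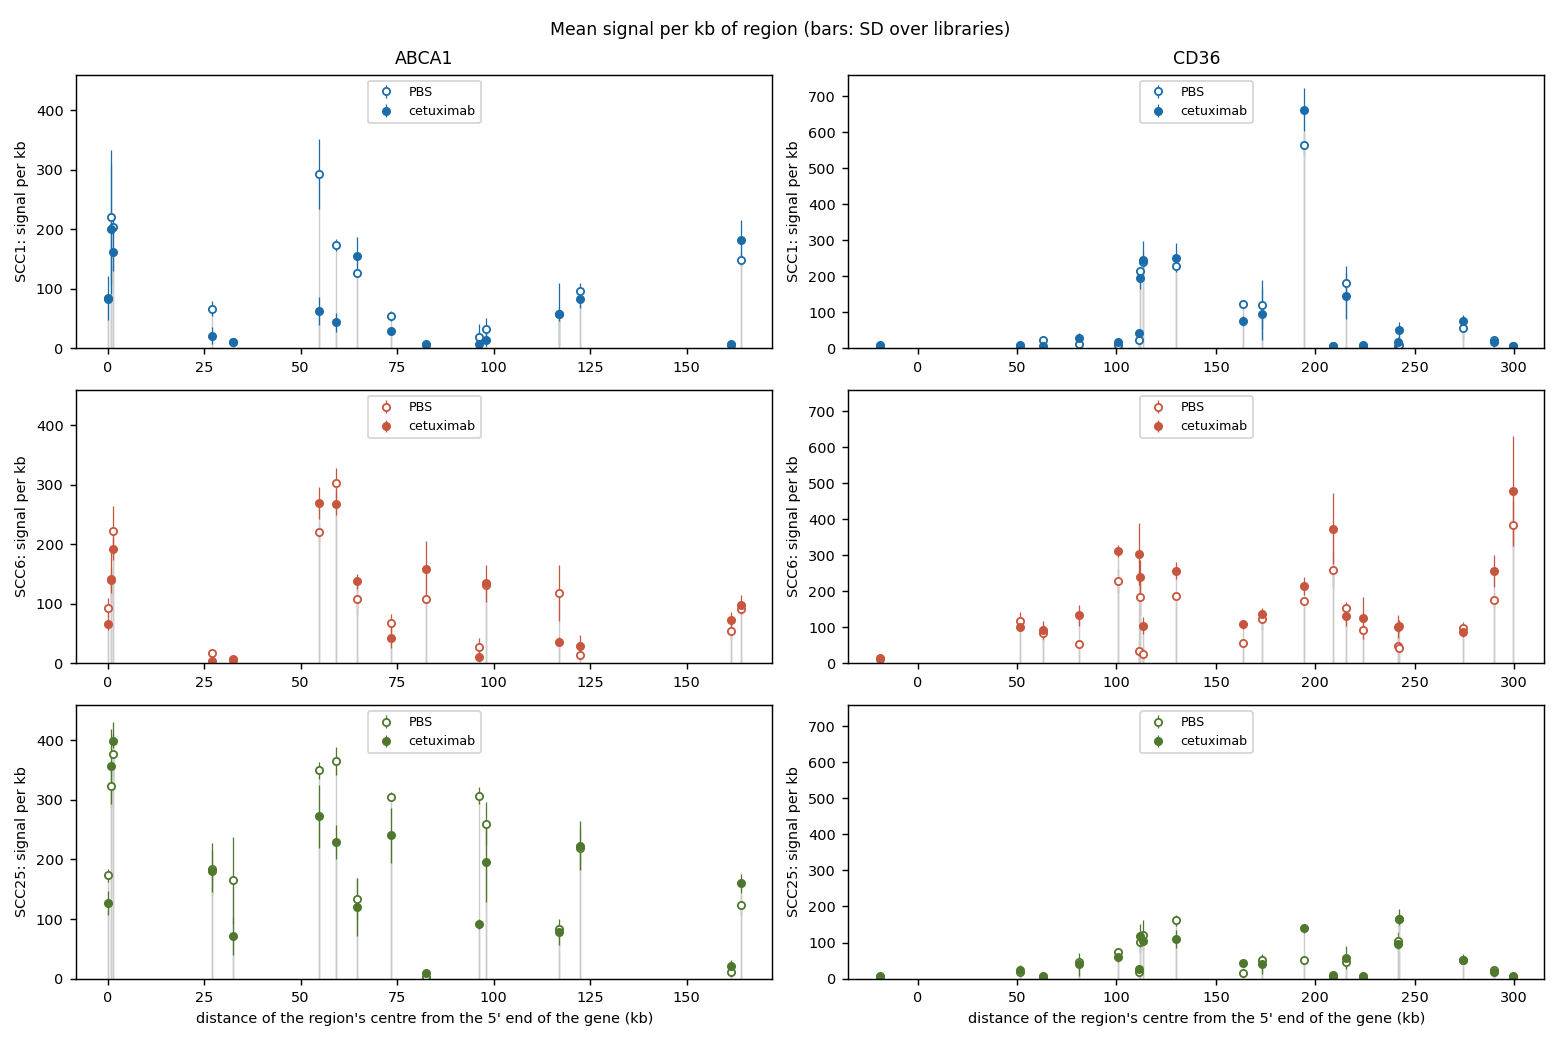
Mean signal per kb of region (vertical axis) by distance from the 5 prime end of the gene in kb (horizontal axis) for ABCA1 (left) and CD36 (right) in the 3 lines; open points are PBS, filled points cetuximab, bars the SD over libraries. Leaving out the 2 regions that chose the genes, untreated SCC25 passed the threshold above SCC6 at 10 of 13 tested ABCA1 regions and below SCC6 at 9 of 13 tested CD36 regions. Over all regions, 36.7% were higher and 32.1% lower, and the medians of the surrounding 5 Mb were 0.77 for ABCA1 and -0.57 for CD36.

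SCARB1, the receptor for high-density lipoprotein, was led by 2 regions of intron 1. At chr12:125312931-125313571 SCC6 rose from 73.7, 63.6 and 60.9 to 147, 168 and 159. The log2 change was 1.25 (SE 0.16, adjusted p = 4.11e-08), and no alternative ended the call. SCC1 already had 251 and 275 with PBS and had 395, 302 and 354 with cetuximab (log2 change 0.40, SE 0.17, adjusted p = 0.0995). The responses differed by 0.85 (SE 0.21, adjusted p = 0.0147), and this was lost on centring each library on its median (adjusted p = 0.167, over all alternatives 0.00408 to 0.167) and without SCC1 PBS replicate 3 (adjusted p = 0.0653). SCC25 was low in both groups, at means of 44.8 and 55.2.

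At chr12:125322692-125323299 SCARB1 rose in both tested lines. SCC1 went from 230 and 191 to 347, 274 and 376 and SCC6 from 188, 189 and 150 to 243, 219 and 225, each without overlap. The log2 changes were 0.65 (SE 0.17, adjusted p = 0.00523) and 0.39 (SE 0.12, adjusted p = 0.0119), and their difference of -0.26 (SE 0.21) did not pass (adjusted p = 0.488). In SCC1 the call was lost with 4 of 5 libraries left out in turn (adjusted p 0.0514 to 0.237), the exception being cetuximab replicate 2. In SCC6 it was lost without cetuximab replicate 1 or PBS replicate 3 (adjusted p = 0.0575 and 0.101), with libraries centred on their medians (adjusted p = 0.201), with DESeq2 (adjusted p = 0.147) and with all libraries in one fit (adjusted p = 0.183). The SCARB1 promoter, chr12:125348245-125348705, had 53.3 and 54.7 against 87.6, 79.8 and 110 in SCC1 (log2 change 0.75, SE 0.28, adjusted p = 0.0635) and a change of -0.11 (SE 0.20, adjusted p = 0.713) in SCC6.

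FABP5 carried the largest log2 change among tested regions of the 8 genes in SCC6, 5834 bases upstream of its body at chr8:82186644-82186937. The signal in SCC6 was 1.21, 4.01 and 8.70 with PBS and 81.8, 89.1 and 75.4 with cetuximab. In SCC1 it was 7.81 and 7.82 against 26.7, 46.7 and 45.4, and in SCC25 4.52, 2.88 and 0.848 against 9.84, 15.6 and 5.31. In each line the treated libraries lay above the untreated ones. A peak was called there in the 3 treated SCC6 libraries alone, and in no SCC1 or SCC25 library. The log2 change was 4.12 (SE 0.38, adjusted p = 1.27e-11) in SCC6 and 2.16 (SE 0.50, adjusted p = 0.000883) in SCC1, and no alternative ended either call. Untreated SCC6 values lay near the floor (1.21 is 1 read in PBS replicate 1), so the size of 4.12 depends on the pseudocount. The difference of 1.96 (SE 0.66) did not pass (adjusted p = 0.0678). In SCC25 the log2 change of 1.61 was larger than that of the CD36 region above, with a standard error of 0.65.

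The neighbouring region upstream of FABP5, chr8:82184927-82185409, moved the same way. No peak was called at it in any SCC1 library. SCC6 rose from 32.6, 31.4 and 39.2 to 76.8, 61.3 and 55.2 (log2 change 0.88, SE 0.24, adjusted p = 0.0042). SCC1 rose from 31.2 and 23.4 to 54.6, 58.4 and 54.8 (log2 change 1.02, SE 0.36, adjusted p = 0.0432), a call lost with each of the 5 libraries left out in turn (adjusted p 0.0630 to 0.347), with no filter (adjusted p = 0.0895), with DESeq2 (adjusted p = 0.0707) and with a replicate block (adjusted p = 0.051). Downstream, chr8:82199101-82199249 fell in SCC6 from 30.2, 16.1 and 22.8 to 1.01, 9.28 and 1.32, a log2 change of -2.68 (SE 0.56, adjusted p = 0.000247). The treated value of 1.01 is the floor of 1 read. In all, 3 of 6 tested FABP5 regions rose and 1 fell in SCC6, beside 16.9% and 10.6% of all regions. Their median log2 change was 0.58, and that of the surrounding 5 Mb 0.33.

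The FABP5 promoter, chr8:82192514-82193211, passed in neither line. It had 147 and 191 against 154, 181 and 146 in SCC1 and 44.7, 34.1 and 37.0 against 59.6, 44.6 and 47.6 in SCC6. The log2 changes were -0.07 (SE 0.21, adjusted p = 0.882) and 0.38 (SE 0.24, adjusted p = 0.243), with 95% intervals that include 0. FABP5 has processed pseudogenes elsewhere, so reads over its exons are less certain than those upstream.

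SREBF1 changed upstream of its start sites. The GC-rich region chr17:17743439-17743925, which had a peak in all 17 libraries, had 163 and 133 with PBS and 260, 232 and 279 with cetuximab in SCC1. In SCC6 it had 176, 131 and 144 against 130, 122 and 184. SCC1 rose without overlap (log2 change 0.80, SE 0.19, adjusted p = 0.00165) and SCC6 did not pass (-0.06, SE 0.15, adjusted p = 0.777). The SCC1 call was lost without PBS replicate 3 (adjusted p = 0.149) and on removing the trend with GC content (adjusted p = 0.0696, over all alternatives 5.32e-05 to 0.149). The difference of the responses, -0.86 (SE 0.25, adjusted p = 0.0359), was lost with 7 of 11 libraries left out in turn (adjusted p 0.0531 to 0.147) and had an adjusted p of 0.377 with the GC trend removed, 0.0660 with cyclic loess scaling and 0.0539 with no filter.

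Next to it, chr17:17744171-17744474 rose in SCC6 from 15.7, 18.1 and 12 to 25.3, 31.6 and 28.8 (log2 change 0.87, SE 0.33, adjusted p = 0.04). That SREBF1 call was lost with 5 of 6 libraries left out in turn (adjusted p 0.0530 to 0.147) and with 7 other settings (adjusted p 0.0574 to 0.139). SCC25 had the highest signal there, 93.8, 80.0 and 104 with PBS. Peaks were called at this region in the 3 untreated SCC25 libraries and in no SCC6 library. The promoter region chr17:17726976-17727288, at an internal start site of SREBF1, had 45.5 and 41.3 against 104, 48.7 and 87.6 in SCC1 and 44.7, 46.2 and 62.0 against 31.3, 24.1 and 50.6 in SCC6, and neither change passed (adjusted p = 0.0689 and 0.102).

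PPARG, the fatty acid-activated receptor, had no region past the threshold in SCC1 or SCC6. Limma called 0 of 4 in each line, 0 had an unadjusted p under 0.05, and edgeR and DESeq2 called 0. Its strongest region lies downstream of the gene, chr3:12486204-12487077, with 212 and 191 against 185, 189 and 136 in SCC1 and 152, 168 and 216 against 166, 192 and 168 in SCC6. The log2 changes were -0.26 (SE 0.20) and -0.02 (SE 0.13), and the groups overlapped in SCC6. At the PPARG promoter, chr3:12330337-12330600, means were between 7.57 and 30.8 in all groups. The untreated order was SCC6, SCC25 and SCC1, with SCC6 above SCC1 (log2 difference 1.99, SE 0.65, adjusted p = 0.0148) a call lost without SCC1 PBS replicate 1 (adjusted p = 0.36) or SCC6 PBS replicate 2 (adjusted p = 0.0585), and the other steps did not pass.

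ANGPTL4, the lipase inhibitor, had changes only at neighbouring promoters in its window. Its own promoter, chr19:8426881-8427246, had 67.7 and 48.0 against 54.6, 56.4 and 54.8 in SCC1 and 95.4, 118 and 120 against 109, 139 and 127 in SCC6 (adjusted p = 0.955 and 0.423). The strongest region away from promoters, chr19:8420498-8420894, did not pass in either line (adjusted p = 0.153 and 0.541). The RAB11B promoter, chr19:8454789-8455842, had 164 and 106 against 297, 150 and 279 in SCC1, where 1 treated library lay within the untreated range, and 507, 486 and 485 against 411, 389 and 426 in SCC6. Its log2 change was 0.81 (SE 0.21, adjusted p = 0.00365) in SCC1 and -0.27 (SE 0.08, adjusted p = 0.00805) in SCC6, beside medians of 0.79 and -0.15 for the surrounding 5 Mb. The responses differed by -1.08 (SE 0.30, adjusted p = 0.0273), beside -0.92 for the surroundings, and this was lost with 6 of 11 libraries left out in turn (adjusted p 0.0524 to 0.152) and with the GC trend removed (adjusted p = 0.136). The SCC1 call was lost without cetuximab replicate 1 (adjusted p = 0.124), cetuximab replicate 3 (adjusted p = 0.0627) or PBS replicate 3 (adjusted p = 0.341), or with DESeq2 (adjusted p = 0.169). The SCC6 call was lost without cetuximab replicate 2 (adjusted p = 0.0566), with cyclic loess scaling (adjusted p = 0.133), with the GC trend removed (adjusted p = 0.18) and with all libraries in one fit (adjusted p = 0.341).

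The KANK3 promoter in the ANGPTL4 window, chr19:8408082-8408385, had 16.9 and 31.3 against 39.3, 54.5 and 50.1 in SCC1 and 97.9, 124 and 104 against 92.9, 104 and 101 in SCC6. The difference of the responses was -1.14 (SE 0.34, adjusted p = 0.0409), beside -0.92 for the surrounding 5 Mb, and it was lost with 9 of 11 libraries left out in turn (adjusted p 0.0532 to 0.219) and with the GC trend removed (adjusted p = 0.245), no filter (adjusted p = 0.0586) or all libraries in one fit (adjusted p = 0.0903).

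More members passed the threshold between untreated lines than after treatment in any line. Against SCC1, 16 of 55 tested members were higher and 17 lower in SCC6, beside 30.7% and 30.5% of all regions. SCC25 had 12 higher and 20 lower than SCC1, beside 28.2% and 23.1%, and 21 higher and 24 lower than SCC6, beside 36.7% and 32.1%. Without the ABCA1 and CD36 regions that chose the genes, whose untreated SCC25 levels entered that choice, SCC25 had 11 higher and 19 lower of 53 against SCC1 and 20 higher and 23 lower of 53 against SCC6. The 3 comparisons share libraries. Copy number and accessibility cannot be told apart in these differences, so the median of other regions within 5 Mb is given beside each gene.

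ABCA1 was higher in SCC25, where 7 of 13 tested regions passed above SCC1 and 10 of 13 above SCC6, with exon 13 left out, and the other regions did not pass. Over all regions, 28.2% passed above SCC1 and 36.7% above SCC6. The median log2 differences were 1.04 and 0.90, and those of the surrounding 5 Mb were 0.68 and 0.77. The ABCA1 promoter had a log2 difference of 1.04 against SCC1 (SE 0.23, adjusted p = 0.00142), while SCC6 and SCC1 did not differ there beyond error (adjusted p = 0.631). Per kb of region, mean signal at the intron 7 region chr9:107616940-107617242 was 305 in untreated SCC25, 67.6 in SCC6 and 54.0 in SCC1, a region picked after its values were seen.

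CD36 was split between lines. In SCC6, 6 of 14 regions were higher and 3 lower than in SCC1, beside 30.7% and 30.5% of all regions. The median was 0.47, beside 0.18 for the surrounding 5 Mb. Against SCC6, SCC25 had 3 higher and 9 lower of 13, with the region that chose CD36 left out and a median of -1.25 beside -0.57 for the surrounding 5 Mb. Over all regions, 36.7% were higher and 32.1% lower in that comparison. The intron 8 region chr7:80298175-80298375 had 87.0, 62.9 and 82.7 in untreated SCC6. It was at the floor of 1 read in all libraries of SCC1 and SCC25, treated or not. Such a region can pass the filter only through the line where it is high, so it is no separate support for the counts above. The region was 30.8% GC and was picked after its values were seen.

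FABP5 was less open in SCC6 than in the other lines at most tested regions. Of 7 tested regions, 5 were lower than in SCC1, beside 30.5% of all regions, with a median of -2.10 beside -0.40 for the surrounding 5 Mb. Against SCC6, SCC25 was higher at 5 of 7 and lower at 1, beside 36.7% and 32.1% of all regions. The median was 1.44, beside 0.25 for the surroundings. The FABP5 promoter had the order SCC1 (169), SCC25 (106) and SCC6 (38.6) in mean signal, with each step past the threshold (adjusted p = 0.00953 and 1.82e-06), although the first was lost without SCC1 PBS replicate 3 (adjusted p = 0.126). ANGPTL4 was most open in SCC6. All 5 regions of its window were higher in SCC6 than in SCC1 (median 1.39) and lower in SCC25 than in SCC6 (median -1.90), beside 1.92 and -1.0 for the surrounding 5 Mb, so the neighbourhood was higher in SCC6 as well. Over all regions, 30.7% were higher in SCC6 than in SCC1 and 32.1% lower in SCC25 than in SCC6.

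At SCARB1, 3 of 5 regions were lower in SCC6 than in SCC1 and 3 of 5 lower in SCC25 (medians -0.71 and -1.28, surroundings -0.34 and -0.12). The other SCARB1 regions did not pass against SCC1. Over all regions, 30.5% were lower in SCC6 and 23.1% lower in SCC25 than in SCC1. Against SCC6, SCC25 had 1 of 5 SCARB1 regions higher and 3 lower, beside 36.7% and 32.1% of all regions. PPARG had its coding exon region chr3:12447220-12447575 at 120 and 80.4 in SCC1, 48.3, 68.2 and 51.1 in SCC6 and 11.7, 11.5 and 11 in SCC25, a log2 difference of -3.00 for SCC25 against SCC1 (SE 0.28, adjusted p = 5.79e-07) beside -0.92 for the surroundings. That exon region was also picked after its values were seen. SREBF1 had 1 of 6 regions called in SCC6 against SCC1. SCC25 differed from SCC1 at 2 and from SCC6 at 3 of them. Over all regions, 61.2%, 51.3% and 68.7% were called in these comparisons.

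**Figure D4:**
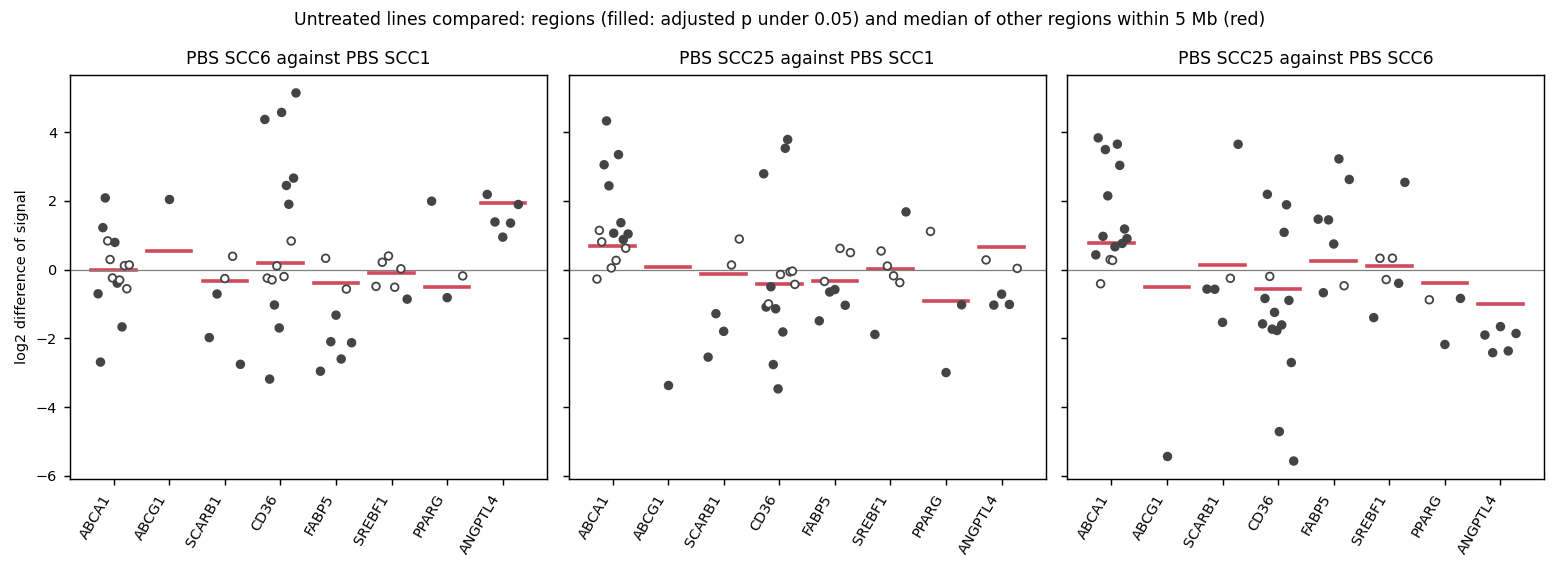
Log2 difference of signal between untreated lines (vertical axis) for each tested region, by gene; filled points passed an adjusted p of 0.05 and red bars are the median of the other regions within 5 Mb. Of 14 ABCA1 points, 13 lie above 0 in each SCC25 panel, among them exon 13, which chose the gene, and all 5 points of ANGPTL4 lie above 0 in SCC6 against SCC1. Over all 86315 tested regions, 42026 were above 0 in SCC25 against SCC1 and 44604 in SCC25 against SCC6. In SCC6 against SCC1 the number was 41593.

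Other lipid genes, chosen by function with earlier results known, gave 201 regions at 37 of 40 genes. In SCC1, 32 of 172 tested were higher and 6 lower (median 0.43, all regions -0.09), and in SCC6 15 of 174 were higher and 20 lower (median -0.04, all regions 0.11). Over all regions, 4.57% were higher and 6.56% lower in SCC1, and 16.9% and 10.6% in SCC6. The sterol sensor and efflux list had 13 higher and 1 lower of 45 in SCC1 and 2 higher and 6 lower of 41 in SCC6. Cholesterol and fatty acid synthesis genes had 6 higher and 2 lower of 58 in SCC1 and 6 higher and 10 lower of 57 in SCC6. PPAR factors and targets had 3 higher and 2 lower of 35 in SCC1 and 3 higher and 3 lower of 37 in SCC6, and uptake, binding and lipolysis genes 10 higher and 1 lower of 34 and 4 higher and 1 lower of 39. The responses differed at 25 of 176 regions of these lists, with 21 lower in SCC6, beside 6.75% and 3.8% of all regions.

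Of 7 such regions called in both lines, 4 went the same way and 3 went opposite ways. The promoter of FASN, the fatty acid synthase, chr17:80056068-80056876, rose by 1.00 in SCC1 (SE 0.19, adjusted p = 2.45e-05) and changed by -0.44 in SCC6 (SE 0.15, adjusted p = 0.0198), with a difference of -1.44 (SE 0.27, adjusted p = 0.00364). This promoter was picked for its opposite directions. A region at PLIN2, the lipid droplet coat protein, fell in both (-1.11 and -0.86).

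The members had a median width of 290.5 bases against 258 for all regions, and a median GC content of 47.2% against 45.9%. The AP-1 motif was in 1 of the 2 members that fell in SCC1 and in 0 of the 5 that rose, beside 43.6% of all regions that fell and 7.6% of those that rose. In SCC6 it was in 3 of 13 that rose and 1 of 3 that fell, beside 16.0% and 37.0% of all regions that did. The TEAD motif was in 3 of 13 members that rose in SCC6, beside 28.2% of all regions that rose.

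The promoters whose log2 signal followed those of the members most closely over the 17 libraries were ANO3 and CSGALNACT1 for ABCA1 (Pearson's r 0.890 and 0.878), CACNB1 and SPSB1 for SCARB1 (0.810 and 0.804), HRK and PITPNM1 for SREBF1 (0.878 and 0.874), H3C3 and GREB1L for PPARG (0.898 and 0.877), MSC and ESRRG for FABP5 (0.973 and 0.973), and MCM3 and NUS1 for ANGPTL4 (0.945 and 0.930). These are the highest of 13420 to 13444 promoters compared for each gene, and all points share the lines and scaling, so they are a description.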

How the data were processed

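ATAC-seq libraries were used from SCC1, SCC6 and SCC25 cells treated with cetuximab or PBS (17 libraries, 6 groups). SCC1 PBS replicate 2 is in the labels but had no signal values among those used here, so it was not analysed. Per the submitters' processing notes and the methods, the authors trimmed reads with Trim Galore 0.5.0, aligned them with Bowtie2 2.3.2 to hg19 (GRCh37), took out PCR duplicates and reads of the mitochondrial genome (Picard 2.18) and those unmapped or of low quality (SAMtools 1.9), called peaks per library with MACS2 (version not given in the sources used here) and merged them with DiffBind. The deposited region table holds a signal, in which each value is a whole number of reads times a scale factor per library (100% whole within 0.001), with 0 set to 1. The deposited peak lists hold, as MACS2 writes them, fold enrichment ratios and −log10 p values, which were used only for the presence of a peak (overlap of at least 1 base). The shift for Tn5 is not given in the sources used here.

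Signals were tested as log2(signal + 1) in limma 3.58.1 (R 4.3.3; trend and robust empirical Bayes, two-sided), with the 25% of regions lowest in mean over the libraries of that comparison left out, and Benjamini-Hochberg adjustment over all tested regions at 0.05. SCC1, SCC6 and SCC25 were fitted separately, the difference of the responses of SCC6 and SCC1 as an interaction, and the untreated lines in 1 fit. A log2 change on this scale understates the change of low regions. edgeR 4.0.16 and DESeq2 1.42.0 on the recovered reads, other scalings, pseudocounts of 5 and 0.5, no filter, a fit of all libraries, removal of the trend with GC content, a replicate block and leaving out each library were alternatives. The scripts were tested on simulated data. Annotation was GENCODE lifted to GRCh37 (78714 start sites of 19807 protein-coding genes), with promoters within 1 kb of a protein-coding start site.

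The members and lists were chosen with earlier results of these data known. Named regions were, for each gene, the strongest promoter, the strongest region elsewhere, and up to 2 regions with the smallest adjusted p in SCC1, in SCC6 and for the difference, plus the CD36 and ABCA1 regions that chose the genes. Python 3.11.15, numpy 2.4.6, pandas 2.3.3 and matplotlib 3.10.9 did the rest. Some items are not reported here.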

Additional observations from a re-analysis of the deposited data

Results flagged for a closer look

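At 8 regions the response of SCC6 differed from that of SCC1 in a test of the difference itself (limma, adjusted p under 0.05). The log2 difference was 2.55 and 1.8 at the ABCA1 intron 5 regions, 1.53 at the CD36 region chr7:80162658-80162892 and 0.85 at the SCARB1 region chr12:125312931-125313571, where SCC6 had the higher log2 change. It was -1.33 at ABCG1 intron 2, -0.86 upstream of SREBF1, -1.14 at the KANK3 promoter and -1.08 at the RAB11B promoter, where SCC1 had it. Both ABCA1 differences held in every alternative run, with any library left out. SCC1 PBS has 2 libraries, so each difference rests on few untreated values.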

How the results depend on the processing

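Of 75 results called for named regions, 45 kept their call under every alternative, and in 155 of 1402 alternatives a call was lost, with 0 changes of sign. These 75 include untreated SCC25 differences at the ABCA1 and CD36 regions that chose the genes, whose SCC25 levels entered that choice. Other named regions were in part picked for a small adjusted p, so the tally describes picked results. Of 76 not called, 90 of 1407 alternatives passed the threshold and 77 changed sign. Counts of called members stayed within 1.5 times in 113 of 138 alternatives. In SCC1 (7) the count was 13 with each library centred on its median, 12 with quantile and with cyclic loess normalization, 11 with edgeR and 3 in gene bodies alone, and 3 to 10 with a library left out. In SCC6 (16) it was 10 with DESeq2, 8 with all libraries in one fit and 10 to 19 with a library left out. In SCC25 the 2 are the regions that chose the genes, so their count is a description and no result. It was 1 with all libraries in one fit and 0 to 2 with a library left out. For the difference of the responses (8) it was 14 with quantile normalization, 5 with no filter, 13 with edgeR, 4 with the GC trend removed, 5 in gene bodies alone and 3 to 9 with a library left out. Between untreated lines the counts of 33, 32 and 45 moved to 28 to 32, 24 to 34 and 39 to 44 with a library left out, and, in an alternative chosen after seeing the data, the latter pair to 30 and 43 without the ABCA1 and CD36 regions that chose the genes. The cause of these shifts was not tested, except that fewer regions stand in gene bodies alone. Same-numbered treated and untreated libraries did not deviate together in signal (r between -0.042 and 0.026). In SCC1 the 2 untreated libraries mirror each other in this check, which makes it weak there. Whether same-numbered libraries shared a culture or processing was not tested. With a replicate block the counts were 10 in SCC1, 16 in SCC6, 2 in SCC25, 8 for the difference, and 32, 29 and 44 between untreated lines. The block ended the call of the FABP5 region chr8:82184927-82185409 in SCC1 (adjusted p = 0.051) and that of the CD36 region chr7:80162658-80162892 for the difference (adjusted p = 0.061). Among the limits are the number of untreated SCC1 libraries (2) and the scaling between libraries.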
